A study of Mus musculus with 2 samples.

Results

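The albumin gene family consists of the genes of 4 related carrier proteins of blood plasma: Alb (albumin), Afp (alpha-fetoprotein), Afm (afamin) and Gc (the vitamin D-binding protein). The 4 genes were taken by symbol, and all were found among the 43346 genes with Ensembl identifiers in each table. RNA was measured in 2 libraries from livers of untreated B6NCrl mouse embryos at embryonic day 11.5. The libraries are biological replicates 1 and 2 of this single group, each from tissue pooled over male and female embryos, 109 embryos in replicate 1 per its label. Each was a SmartSeq library, in which polyadenylated RNA is copied into cDNA and amplified by PCR, made from 1 cell-equivalent of RNA above a size limit of 200, with spike-in RNAs added. Although the assay label speaks of single cells, the RNA came from pools of tissue. Each library is thus a draw of 1 cell-equivalent from the RNA of a pool. With 1 group there is no comparison of conditions, and no test was made. The values below are levels and their spread.

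Albumin carries fatty acids, bilirubin and hormones and holds water in the blood. Alpha-fetoprotein is its fetal counterpart, made by hepatoblasts, the precursors of hepatocytes, and by the yolk sac, and its gene is shut down in the liver after birth. Afamin binds vitamin E and Wnt proteins, and the vitamin D-binding protein carries vitamin D metabolites and takes up actin released from damaged cells. The transcription factors ZBTB20 and ZHX2 are known repressors of Afp.

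All 4 genes lie on mouse chromosome 5 (build mm10). Alb (ENSMUSG00000029368) spans 90460897 to 90476602, Afp (ENSMUSG00000054932) 90490737 to 90508907 and Afm (ENSMUSG00000029369) 90518932 to 90553543, all on the plus strand. The gap was 14.1 kb from Alb to Afp and 10 kb from Afp to Afm. Gc (ENSMUSG00000035540) lies apart from them, at 89417522 to 89457898 on the minus strand, 1003 kb before Alb. The main transcripts of Alb, Afp and Afm have 15 exons each and that of Gc has 13. Their coding sequences, in release M21 of the annotation, hold 608 codons for Alb, 605 for Afp, 608 for Afm and 476 for Gc.

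The promoters are shown because, with up to 2 mismatches allowed, all 4 hold a match to a palindrome given below. The genes were not chosen by it. However, it is known from liver gene promoters, which may include theirs, so the matches are description and no independent support. The windows run from 250 bases before to 50 after the start in RefSeq (GRCm38.p6, the build also called mm10), on the strand of the gene. They are chr5:90460620-90460919 for Alb, chr5:90490464-90490763 for Afp, chr5:90518699-90518998 for Afm and, on the minus strand, chr5:89457849-89458148 for Gc. Capitals mark each match to GTTAATNATTAAC, a palindrome known from promoters of liver genes, with at most 2 mismatches among its 12 fixed letters, both strands being equivalent.
Alb: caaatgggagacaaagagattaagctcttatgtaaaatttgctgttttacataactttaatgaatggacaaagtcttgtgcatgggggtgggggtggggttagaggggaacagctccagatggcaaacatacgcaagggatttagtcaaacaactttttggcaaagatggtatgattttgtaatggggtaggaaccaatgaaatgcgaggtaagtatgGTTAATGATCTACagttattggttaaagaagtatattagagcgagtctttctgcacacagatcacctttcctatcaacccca
Afp: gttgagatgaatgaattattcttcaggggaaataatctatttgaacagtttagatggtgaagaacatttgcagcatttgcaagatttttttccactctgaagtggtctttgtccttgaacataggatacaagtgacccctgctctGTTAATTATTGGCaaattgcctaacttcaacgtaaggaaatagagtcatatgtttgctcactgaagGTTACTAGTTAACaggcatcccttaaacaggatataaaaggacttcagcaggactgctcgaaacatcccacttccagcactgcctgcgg
Afm: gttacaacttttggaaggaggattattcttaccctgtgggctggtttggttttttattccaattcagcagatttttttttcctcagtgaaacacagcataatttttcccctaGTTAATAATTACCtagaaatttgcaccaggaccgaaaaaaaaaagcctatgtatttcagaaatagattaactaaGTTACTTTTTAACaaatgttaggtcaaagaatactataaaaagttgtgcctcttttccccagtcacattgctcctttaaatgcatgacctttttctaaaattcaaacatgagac
Gc: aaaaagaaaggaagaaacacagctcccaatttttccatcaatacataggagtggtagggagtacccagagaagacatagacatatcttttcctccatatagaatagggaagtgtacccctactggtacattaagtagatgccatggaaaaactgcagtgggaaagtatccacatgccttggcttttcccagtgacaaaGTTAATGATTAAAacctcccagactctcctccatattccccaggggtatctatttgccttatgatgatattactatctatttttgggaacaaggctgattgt

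Each of the 4 windows held such a match, against 1.36% of all 32851 promoter windows of the table. Alb had 1 match, GTTAATGATCTAC, with 2 mismatches, beginning 32 bases before the RefSeq start. Afp had 2 matches with 2 mismatches each, beginning 105 and 39 bases before it. Afm also had 2, and the closer of these to the palindrome, GTTAATAATTACC, had 1 mismatch and began 138 bases before the start. Gc had GTTAATGATTAAA, with 1 mismatch, 52 bases before the start. A match with at most 1 mismatch was thus in 2 of the 4 windows, against 0.207% of all windows, and none of the 4 held an exact match. The start in GENCODE M21 lies 23 bases after the RefSeq start for Afp, 27 after it for Alb and 17 before it for Afm. For Gc the starts coincide. The distances for Afp, Alb and Afm thus depend on the annotation. The windows are also poor in G and C, at 40.0% for Alb and Afp, 33.0% for Afm and 40.3% for Gc, beside a median of 52.7% over all windows. The box TATAAA, on either strand, was in the Afp and Afm windows and in 13.6% of all. CCAAT was in all 4 and in 37.4% of all. The FOXA letters TGTTTAC or TGTTTGC were in the Alb and Afp windows and in 8.48% of all. The letters TCAAGG, the core of the site of NR5A2, were in the Afp window and in 14.4% of all. These are matches of letters and no measurement of binding was made.

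Afp was by far the most abundant member. It had 4870 TPM (a level normalised for transcript length and library size) in replicate 1 and 4016 TPM in replicate 2. These values came from 286042 and 234439 estimated reads, or 0.859% and 0.719% of all reads of the library. Among Ensembl genes Afp ranked 13th in replicate 1 and 18th in replicate 2. Both libraries were high, and the mean was 4443 ± 604 TPM (SD, n = 2). In these bulk samples a gene's level mixes the number of cells that express it with the RNA in each, which cannot be told apart.

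Alb was the second member in both libraries. It had 601 TPM from 34513 reads in replicate 1 and 615 TPM from 35107 reads in replicate 2, with ranks of 260 and 262. The replicates nearly coincided, at 608 ± 9.98 TPM (SD, n = 2), a spread of 1.64% of the mean against 13.6% for Afp. Afp RNA thus stood at 8.11 times Alb RNA in replicate 1 and 6.53 times in replicate 2. The lowest level of Afp was well above the highest of Alb, so the order of these members did not depend on the library.

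Afm and Gc were each at TPM 1 or more in a single library, and not in the same library. Afm had 21.7 TPM from 1246 reads in replicate 1 (exact Poisson 95% interval of the reads 1178 to 1317) and 0.210 TPM from 13 reads in replicate 2 (6.92 to 22.2). Its share of reads was 93.9-fold higher in replicate 1 (exact 95% interval 54.7 to 177). Gc showed the opposite pattern. It had 31.5 TPM from 1583 reads in replicate 2 (1506 to 1663) and no read in replicate 1. There the interval reached 3.69 reads, or 0.0729 TPM, and a set floor of 3 reads would be 0.0592 TPM. Replicate 2 gave Gc a 539-fold higher share of its reads, taking 3 reads in replicate 1 as the floor. Intervals, floors and folds cover the counting of reads only, as amplified copies are not separate molecules. The order of Afm and Gc reversed between the libraries, so these data do not rank them. Where each was seen, Afm reached 3.62% of the Alb level and Gc 5.12%.

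**Figure D1:**
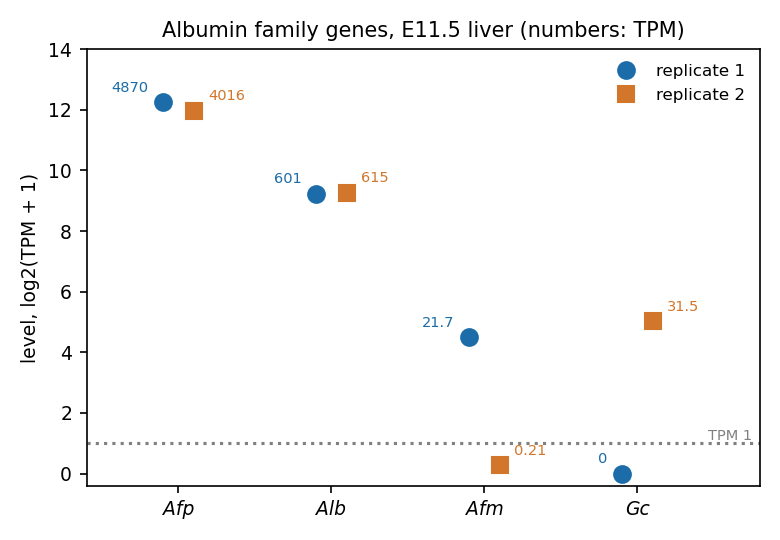
Level of each family gene as log2(TPM + 1) in replicate 1 (circles) and replicate 2 (squares), with the TPM printed beside each point and a dotted line at TPM 1. Afp and Alb are close in both libraries, Afm is above the line in replicate 1 alone (21.7 TPM) and Gc in replicate 2 alone (31.5 TPM).

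Together the 4 genes held 5492 TPM in replicate 1 and 4663 TPM in replicate 2, which is 0.549% and 0.466% of all TPM. Afp made up 88.7% and 86.1% of the family sum and Alb 10.9% and 13.2%. Afm and Gc together made up 0.396% and 0.679%. The globin genes, the main product of the red cell precursors that fill this liver, summed to 17.8 and 19.1 times the family.

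The agreement of Afp and Alb, and the disagreement of Afm and Gc, were set beside all genes. The log2 ratio of replicate 2 over replicate 1, with 1 added to each TPM and centred on its median over the 6801 genes whose TPM averaged 10 or more, was -0.30 for Afp, 0.01 for Alb, -4.26 for Afm and 5.00 for Gc. With 1 added, the ratios of Afm and Gc are understated. Both passed 2-fold, Gc toward replicate 2 and Afm toward replicate 1, as did 51.1% of the 6801 genes, 25.2% toward replicate 2 and 25.8% toward replicate 1. So 2 of the 4 members past 2-fold was near the background. Genes at a mean of 1000 TPM or more had a median absolute log2 ratio of 0.21 with quartiles of 0.10 and 0.35, and Afp, at 0.30, lay within those quartiles. Genes at 100 to 1000 TPM had a median of 0.50 with quartiles of 0.24 and 0.89, and Alb lay below them. Genes at 10 to 100 TPM had a median of 1.39 and quartiles of 0.56 and 4.35. Afm, at 4.26, lay just below the upper quartile of that band and Gc, at 5.00, lay above it.

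**Figure D2:**
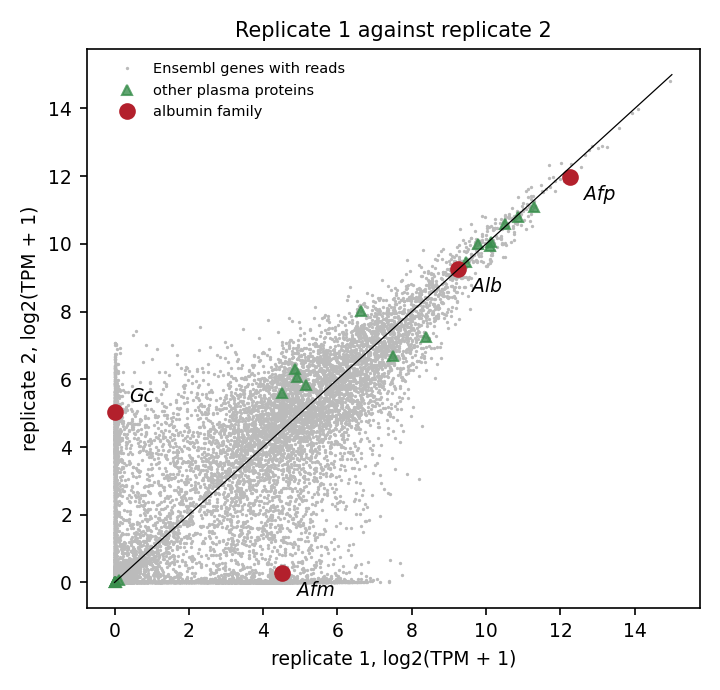
Level of every Ensembl gene with reads, as log2(TPM + 1), in replicate 1 (x axis) against replicate 2 (y axis), with the family genes as labelled circles, other plasma protein genes as triangles and the line of equal level. Afp and Alb lie near the line among the other abundant plasma protein genes, and Gc and Afm lie at or near the axes with many other genes.

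Genes of the level of Afm or Gc in a given library were often near 0 in the other. Of 2196 genes at 20 to 50 TPM in replicate 1, 26.4% were under TPM 1 in replicate 2 (exact 95% interval 24.6 to 28.3%), as Afm was, and 14.6% had no read there. Of 2170 genes at that level in replicate 2, 23.6% were under TPM 1 in replicate 1 (21.9 to 25.5%), and 15.5% had no read there, as Gc did. At 500 TPM and above, the level of Alb and Afp, no gene fell under TPM 1 in the other library. For the genes at 20 to 50 TPM, the draw of so little RNA, a failure to capture it and a difference between the pools cannot be told apart.

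**Figure D3:**
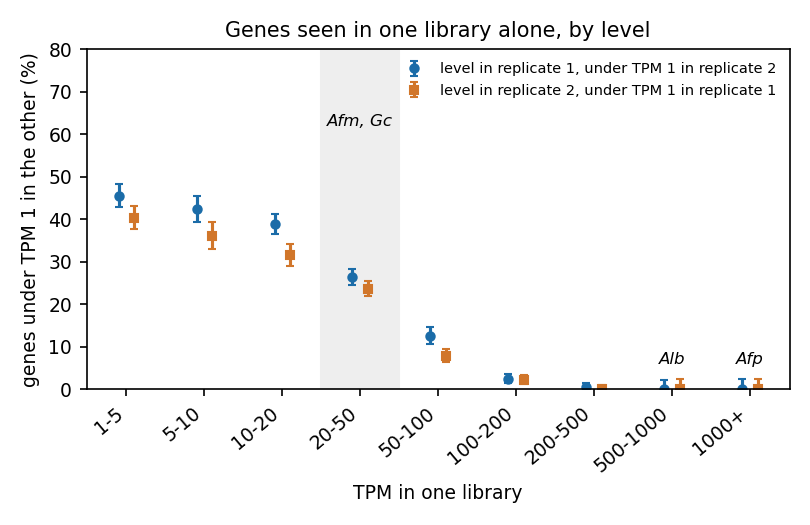
Percent of genes under TPM 1 in the other library (y axis) by TPM in a given library (x axis), with exact 95% intervals as bars, circles for levels read in replicate 1 and squares for replicate 2. The shaded bin of 20 to 50 TPM, which holds Afm and Gc, stands at 26.4% and 23.6%, and the bins of Alb and Afp stand at 0.

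The transcript tables gave no further structure for Afp, Alb and Gc, since each had 1 transcript in the annotation used for the tables, which took 100% of its gene wherever reads were present. Afm had 2. Afm-201, with 15 exons, held 99.8% of the Afm abundance in replicate 1. In replicate 2 it held 70.1% and Afm-202 held 29.9%, a split of 8.55 and 4.45 estimated reads, too few to describe a difference in transcripts. The longest stretch of bases common to any 2 of the main transcripts was 13, and none shared a stretch of 100 bases. The release M21 annotation lists 5 transcripts for Afp, 3 for Alb and 2 for Gc, and the added ones were not measured here. The posterior mean TPM, another estimate in the same tables, was 4781 and 3943 for Afp, 590 and 604 for Alb, 21.4 and 0.240 for Afm and, in replicate 2, 30.9 for Gc.

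Within 250 kb of the members there were 15 other genes in the tables, of which 10 had no read in either library. The gene next to Afm, 5830473C10Rik, named Albfm1 in RefSeq and by that name another relative of albumin, starts 7.56 kb beyond Afm and had no read. Rassf6, 49.5 kb from Afm, had none either. Before Alb, Ankrd17, an ankyrin repeat protein gene on the opposite strand 94.3 kb away, had 7.97 and 20.2 TPM in replicates 1 and 2, and Cox18, a mitochondrial assembly factor gene, had 3.41 and 0 TPM. The only other genes of this region at 1 TPM or more in both libraries were the platelet chemokine genes Ppbp, at 102 and 128 TPM, and Pf4, at 754 and 998 TPM, more than 200 kb beyond Afm. Around Gc, neither Npffr2 nor Adamts3 had a read, and Slc4a4 had 0.700 and 0 TPM.

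**Figure D4:**
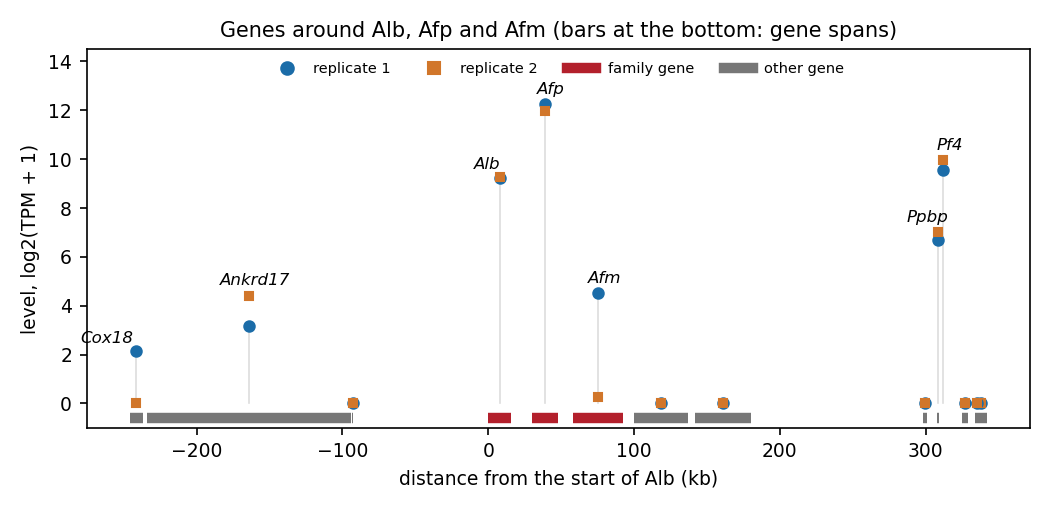
Level as log2(TPM + 1) in replicate 1 (circles) and replicate 2 (squares) of the genes around Alb, Afp and Afm, against the distance from the start of Alb in kb, with gene spans as bars at the bottom, red for the family. Alb and Afp stand between genes that are low or unread, and Ppbp and Pf4 form a separate high pair about 300 kb away.

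Genes nearest to a member in level over the 2 libraries were of other kinds. Those nearest to Afp were Fth1, the ferritin heavy chain gene, at 4561 and 4151 TPM, Gm10123 at 4390 and 3737 and the embryonic globin gene Hbb-bh1 at 4817 and 4565. Those nearest to Alb were Psmb2, a proteasome subunit gene, at 613 and 620 TPM, the imprinted H19 at 601 and 600, and Sumo2 at 598 and 636.

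Other plasma protein genes of the liver gave the setting of Afp and Alb. Of 20, 14 were at TPM 1 or more in both libraries, beside 27.3% of all protein coding genes. None was at TPM 1 or more in a single library. The remaining 6 were under TPM 1 in both, among them Fetub, a fetuin gene, with 1 read in replicate 1, and Hp, the haptoglobin gene, and Serpina7, the gene of thyroxine-binding globulin, with no read. Of all Ensembl genes, 8922 were at TPM 1 or more in replicate 1, 8342 in replicate 2 and 6481 in both. Genes at 100 to 200 TPM in replicate 1 were under TPM 1 in replicate 2 in 2.27%, beside 26.4% at 20 to 50 TPM, the level of Afm. By level in replicate 2, these were 2.11% and, at the level of Gc, 23.6%. The 14 genes had a median absolute log2 ratio of 0.44, against 1.03 over the 6801 genes, 0.50 over genes at 100 to 1000 TPM and 0.21 over genes at 1000 TPM or more, which are nearer to the levels of most of the 14. Of the 14, 4 were over 2-fold higher in replicate 2 and 1 in replicate 1, beside 25.2% and 25.8% of the 6801 genes. Among those 4, Apob had 29.1 and 66.7 TPM but 7973 and 5060 reads, so its direction differed by reads. Afp was higher than all 20 of these plasma protein genes. It stood at 1.88 ± 0.0794 times Apoa2 (n = 2), an apolipoprotein gene, and 2.45 ± 0.244 times Trf, the transferrin gene. Against Apoa1 it stood at 3.36 and 2.63 times in replicates 1 and 2. Alb was below these, at 0.259 ± 0.0286 times Apoa2, 0.337 ± 0.0179 times Trf and 0.408 ± 0.00831 times Apoa1. Ambp, the gene of the bikunin precursor, chosen after its value was seen, was at 706 and 711 TPM.

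Transcription factors known to act on genes of the family were all below Alb and Afp, while Trp53, Ctnnb1 and Hhex were above Afm and Gc. Of 28 regulators, 8 (28.6%) were at TPM 1 or more in both libraries, close to the 27.3% of all protein coding genes, 7 in replicate 1 alone, 2 in replicate 2 alone and 11 in neither. Single-library detection was common over all genes at low levels. At 5 to 10 TPM in replicate 1, 42.4% were under TPM 1 in replicate 2. At 1 to 5 TPM in replicate 2, 40.3% were under it in replicate 1. The 8 regulators seen in both were Trp53 at 137 and 144 TPM, Ctnnb1 at 124 and 63.7, the liver bud factor Hhex at 33.0 and 71.1, Gata4 at 21.8 and 18.8, Gata6 at 8.62 and 12.2, Tbx3 at 12.4 and 7.18, Tef at 7.60 and 6.29, and Nfia at 14.2 and 1.62. Foxa1, a factor of early liver formation, was among 7 regulators with no read in either library. Values chosen after they were seen were those of the other factors named in the background or with sites searched in the promoters. Zbtb20 had 2 and 27 reads (0.110 and 1.40 TPM) and Zhx2 had 9 and 43 reads (0.0700 and 0.340 TPM), while Foxa2 and Nr5a2 had no read. Hnf4a had 34.8 TPM and Cebpa 5.19 TPM in replicate 1, and neither had a read in replicate 2. A regulator without reads was not detected here, which does not show that it was absent.

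**Figure D5:**
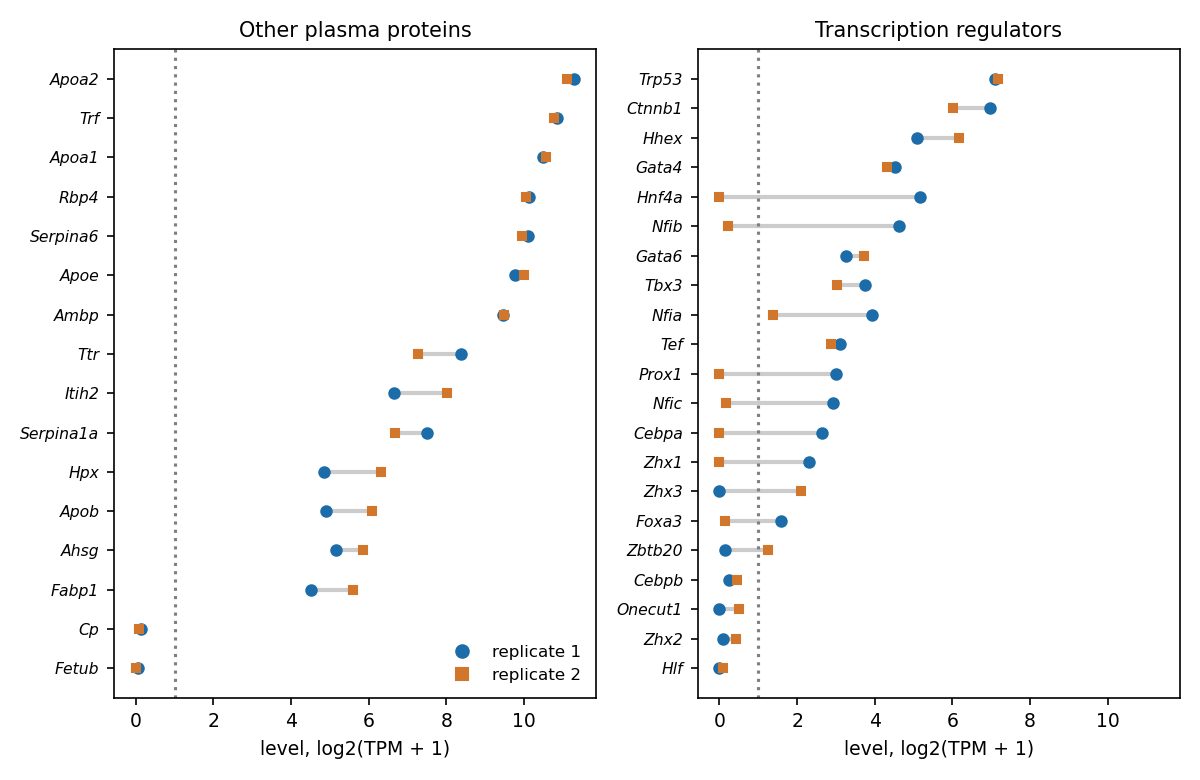
Level as log2(TPM + 1) of the other plasma protein genes (left, 16 of 20) and regulators (right, 21 of 28) with a read in either library, in replicate 1 (circles) and replicate 2 (squares), a grey bar joining the libraries and a dotted line at TPM 1. Plasma protein genes, most at higher levels than most regulators, lie on the same side of the line in both libraries, and 9 regulators cross it.

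Of 21 genes of receptors and handling proteins for the family's products, 9 (42.9%) were at TPM 1 or more in both libraries, beside 27.3% of all protein coding genes, 1 in each library alone and 10 in neither. The highest were the actins that the vitamin D-binding protein can take up, Actb at 3577 and 4046 TPM and Actg1 at 1387 and 1044, and B2m, the light chain of the albumin-recycling receptor, at 401 and 475. Fcgrt, the heavy chain of that receptor, chosen after its value was seen, had 22.8 and 30.4 TPM. The endocytic receptor genes Lrp2, Cubn and Amn, which take up several of these carriers in yolk sac and kidney, had no read. Of 20 genes of the secretory route, 19 were at TPM 1 or more in both libraries, against the same 27.3%. Sec61b, a subunit of the channel into the endoplasmic reticulum, had 531 and 435 TPM, the chaperone gene Hspa5 363 and 556, and Pdia3, a disulfide isomerase gene, 460 and 372. Furin, a protease gene of the route, had 0.400 and 0.160 TPM.

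Marker lists of the cells that the pools could hold were read beside these levels. Counts at TPM 1 or more in both libraries are to be read beside the 27.3% of all protein coding genes. Of 10 hepatoblast epithelial genes, 3 were at that level in both (Dlk1 at 117 and 80.9 TPM, Krt18 at 139 and 50.3, Krt8 at 33.9 and 100), and Epcam had no read. Mature hepatocyte genes were seen in both libraries in 2 of 16, 1 of them Ass1, a urea cycle enzyme gene, at 38.6 and 57.5 TPM. Afp is also a product of the visceral yolk sac. Of 13 yolk sac endoderm genes, 5 were at TPM 1 or more in both libraries, with a sum of 912 TPM in replicate 1 and 599 in replicate 2, mostly from Apom and Ttr, which liver also makes. Pla2g12b had 96.4 and 6.66 TPM, Slc39a8 17.6 and 15.1, and Dab2 11.5 and 14.1. Rhox5 was at 21.9 TPM in replicate 1 alone and Soat2 at 24.6 TPM in replicate 2 alone, and Cubn, Lrp2, Amn, Slc13a4, Entpd2 and Apoa4 had no read. The part of yolk sac cells in the Afp level was not tested. None of 9 gut, pancreas and lung genes had a read. The erythroid list summed to 1783 and 1787 TPM, with 15 of 15 genes in both libraries. Sums of the endothelial list were 144 and 168 TPM, with 7 of 10 genes in both libraries. The bile duct list summed to 0.160 and 26.1 TPM, of which Krt7, a keratin gene, gave 25.4 TPM in replicate 2. The macrophage list summed to 513 and 226 TPM, with 6 of 12 genes in both libraries and 3 in replicate 1 alone. For the mesenchymal list the sums were 294 and 562, with 8 of 12 in both and 3 in replicate 1 alone. Of all genes at 20 to 50 TPM in replicate 2, 23.6% were under TPM 1 in replicate 1. The heart muscle list summed to 50.3 and 326, of which Actc1 gave 43.5 TPM in replicate 1. It had 2 of 12 genes in both libraries and 7 in replicate 2 alone. The part of these cell types in the opposite values of Afm and Gc was not tested.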

How the data were processed

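The libraries held 33289699 (replicate 1) and 32607453 (replicate 2) reads. The floor set for a gene with no read, 3 reads, is a CPM of 0.0901 and 0.0920. Per the file headers, the deposited expected counts are estimated reads per gene or transcript, and the deposited TPM, posterior mean TPM and FPKM (not used in any result) are scaled for length and, for TPM, to a fixed sum with spike-ins included. Percent values deposited per transcript, its part of the abundance of its gene, were also read. Per the labels, the assembly is mm10, with annotation M4 per the deposited listing. The aligner is not given in the sources used here, nor is the quantification program. Symbols and coordinates came from GENCODE M21 by identifier without version, and 42462 of 43346 genes matched. All 4 members matched a RefSeq promoter.

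Chi-square per degree of freedom between the replicates was 814 over 11205 genes, so they were not a library entered again. Log2 ratios used a pseudocount of 1 and centring on the median over genes averaging TPM 10 or more. Detection was TPM 1 or more. The ratio script was tested on simulated data. Values were computed with Python 3.11.15, pandas 2.3.3, numpy 2.4.6 and scipy 1.17.1. Named genes are the members, the 3 highest and up to 3 genes under TPM 1 in both libraries (in list order) per list, regulators and neighbours (within 250 kb) at TPM 1 or more, and the 3 genes nearest in level. For the cell type lists only some of these are printed, and some genes that the rule names are not reported here. The members, 14 lists and rules were chosen with earlier results of these data known. Alternatives were other estimates, denominators, pseudocounts, centrings and thresholds, and each replicate alone.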

Additional observations from a re-analysis of the deposited data

How the results depend on the processing

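Of 72 recomputed values of the main results, 54 stayed within a limit set for each. The limit was the spread between replicates, for log2 ratios the counting error up to a fixed cap, and for a count 1.5 times. Levels, shares and Afp to Alb ratios from a single replicate always lie within the SD of 2 libraries. The sum of transcript TPM repeats the gene TPM. Such values could not pass the limit, so their part of the 54 shows no stability. With spike-in rows and globin genes left out of the denominator, mean TPM was 5293 for Afp and 724 for Alb and the family held 0.605% of TPM. Without spike-in rows alone Alb had 652 TPM, and its posterior mean was 597. By expected counts the family held 0.899% of reads. Centring on spike-ins, which subtracts 0.42 in place of 0.03, gave log2 ratios of -0.70 for Afp and -0.38 for Alb, turning the sign of the Alb ratio. Without centring, and when centred over all genes, the ratios were -0.28 for Afp and 0.03 for Alb, and when centred over genes of mean TPM 1 or more -0.21 and 0.10. A pseudocount of 0.1 gave -6.16 for Afm and 8.28 for Gc, and CPM gave -4.82 and 5.59. From a single replicate, the Afp level ranged from 4016 to 4870 TPM, the Afp to Alb ratio from 6.53 to 8.11 and the family share from 0.466 to 0.549%. Alb ranged from 601 to 615 TPM, Afm from 0.210 to 21.7, Gc from 0 to 31.5, and the share of Afm-201 from 70.1 to 99.8%. Regulators detected in both libraries numbered 13 at TPM 0.1 and 4 at TPM 10, against 8, and 15 were detected in replicate 1.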

Other observations

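Other genes of the level of Afm and Gc were at TPM 1 or more in a single library, in either direction. Otc, a urea cycle enzyme gene, stood at 35.3 TPM (2314 reads) in replicate 1 but was unread in replicate 2. Hnf4a had 1860 reads in replicate 1 and likewise none in the other library. Soat2, a sterol esterifying enzyme gene from the yolk sac list, had none in replicate 1 and 24.6 TPM from 1530 reads in replicate 2. These genes were chosen after their values were seen. Fabp1, the liver fatty acid-binding protein gene, stood at a like level of 21.8 and 47.2 TPM and was read in both. Among all genes at 20 to 50 TPM in replicate 1, 26.4% were under TPM 1 in replicate 2, as Afm was with 13 reads. Among those at 20 to 50 TPM in replicate 2, 15.5% had no read in replicate 1, as Gc had none.

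The match to the palindrome GTTAATNATTAAC found in the 4 family promoters was found less in genes detected in both libraries than in all genes, abundant or not. This difference was not tested. Windows with a match averaged 44.5% G and C, beside a median of 52.7% over all windows, and the genes compared were not matched for it. Of genes with a window at TPM 1 or more in both libraries, 41 of 4745 (0.864%) held the match. At TPM 100 or more in both, 7 of 866 (0.808%) did, against 1.37% of all 18859 Ensembl genes with a window. Of 15 other plasma protein genes with a window, 1 did, Serpina7, which had no read. The window of Apom, a further secreted apolipoprotein gene at 434 and 387 TPM, also held it. Among regulators, Hnf4a and Zbtb20 held it, 2 of 20. The highest share of the lists was in mature hepatocyte genes, 3 of 13 (23.1%).

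The deposited credibility bounds did not always contain the deposited TPM. Alb had 601 TPM with bounds of 583 to 596 in replicate 1, and 615 TPM with bounds of 597 to 610 in replicate 2. Afp likewise exceeded its upper bounds of 4799 and 3959. Of genes at TPM 100 or more, 19.3% in replicate 1 and 18.9% in replicate 2 stood above their upper bound. The bounds surround the posterior mean TPM, whose median ratio to TPM over these genes was 0.983 in each library. Rows without a read held 1.48% and 1.51% of all posterior mean TPM.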
